A study of Mus musculus with 4 samples.

Results

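The genes described are those that make, package, take up and break down GABA, the main inhibitory transmitter of the brain, as read on 4 single-colour microarrays of mouse dorsal raphe nucleus RNA. The members were taken by gene symbol from the probe table of the array platform. Of 5 listed genes, 4 were named there, by 5 probes, among 16383 named genes in all. Gad2, Slc32a1 and Slc6a11 had 1 probe each and Abat had 2, while Gad1 was named by no probe and was not analysed here. Each array carried RNA pooled from 5 mice, all males of 10 weeks on the C57BL/6J background. There were 4 groups, namely stressed D2LR-KO mice, which lack the long form of the dopamine D2 receptor, stressed D2R-KO mice, which lack the receptor, stressed wild-type mice (WT) and non-stressed WT mice. Stressed mice were made to swim for 6 min a day over 4 days and their tissue was taken 12 h after the last session. There was no array of non-stressed knockout mice, so a knockout differs from non-stressed WT in stress and genotype at once.

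GABA is made from glutamate by the glutamate decarboxylases, of which Gad2 encodes the form bound to nerve terminals. Slc32a1 encodes the vesicular transporter that loads both GABA and glycine into synaptic vesicles. Slc6a11 encodes GAT-3, a plasma membrane transporter that clears GABA and is found mostly on astrocytes. Abat encodes GABA transaminase, the mitochondrial enzyme that starts GABA breakdown in neurons and glia. In and around the dorsal raphe, local GABA neurons inhibit the serotonergic neurons.

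Since each group had 1 array, the values carry no replicate error and the differences no test, and precision is limited by how few arrays there are. Calls of higher or lower needed a 1.5-fold difference and detection on at least 1 of the 2 arrays compared. The only repeated measurements were 24 spots of each of 2 positive controls, whose log2 difference between arrays had an SD of 0.0966 to 0.227 over spots. That spread covers spots on an array, not mice or labellings, and these controls were brighter than any member, with median spot intensities of 3887 to 13292. The stressed WT array stood apart from the rest: its correlation across genes with the other arrays was 0.958 to 0.966, against 0.990 to 0.994 among the other 3. The 3 comparisons that include it have a wide background, and for the other 3 the values with that array left out of the normalization are given too. Of the serotonergic markers of the labelled tissue, Tph2 had deposited intensities of 151.5 in stressed D2LR-KO, 264.6 in stressed D2R-KO, 10.7 in stressed WT and 31.4 in non-stressed WT. Tph2 in stressed WT thus lay below the array median of 25. Its log2 fold of -0.63 for stressed WT against non-stressed WT turned to 0.08 with the brightness around each spot as background. Of the 10 serotonergic genes compared there, 4 were above 0 and 6 below (median -0.07). Drd2, the targeted gene, had deposited intensities of 48.3 in stressed D2LR-KO, 20.9 in stressed D2R-KO, 43.8 in stressed WT and 26.8 in non-stressed WT. The position of its probe relative to the deleted sequence is not known here, so that probe checks the labels little.

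All 4 members were lowest on the stressed D2LR-KO array by normalized signal, and they were not all highest on the same array. Gad2 and Slc32a1, the markers of GABA neurons, were bright, at the 89.3 to 92.8 and the 89.2 to 93.1 percentile of named probes on the 4 arrays. Slc6a11 lay at the 73.4 to 84.7 percentile. Abat lay at the 57.0 to 71.4 percentile by its brighter probe. Every member passed the detection limit on every array. In bulk tissue, fewer cells of a type and less RNA per cell cannot be told apart.

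Gad2 (probe M200001952) had a spot intensity of 578.1 in stressed D2LR-KO, 1101 in stressed D2R-KO, 516.4 in stressed WT and 1072 in non-stressed WT. After background correction and quantile normalization its log2 signal was 9.33 in stressed D2LR-KO, 9.87 in stressed D2R-KO, 9.42 in stressed WT and 9.82 in non-stressed WT. The arrays thus formed a high pair, stressed D2R-KO and non-stressed WT, which were 0.05 apart, and a low pair, stressed WT and stressed D2LR-KO, which were 0.09 apart. Both of these gaps were smaller than the spot SD, and a gap of 0.40 separated the pairs. The authors' deposited intensities, scaled to an array median of 25, were 358.2 in stressed D2LR-KO, 591.1 in stressed D2R-KO, 300.8 in stressed WT and 504.4 in non-stressed WT, where stressed WT and not stressed D2LR-KO is lowest.

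Slc32a1 (probe M200002547) had a spot intensity of 572.7 in stressed D2LR-KO, 1161 in stressed D2R-KO, 721.5 in stressed WT and 843.0 in non-stressed WT. Its log2 signal was 9.31 in stressed D2LR-KO, 9.94 in stressed D2R-KO, 9.91 in stressed WT and 9.47 in non-stressed WT. Here stressed D2R-KO and stressed WT were the high pair, 0.03 apart, and non-stressed WT and stressed D2LR-KO the low pair, 0.16 apart. The pairs were separated by 0.44. By normalized signal stressed WT was therefore on the low side for Gad2 and on the high side for Slc32a1. Both genes are used by GABA neurons, and Slc32a1 by glycine neurons too. The deposited intensities of Slc32a1 were 354.6 in stressed D2LR-KO, 624.4 in stressed D2R-KO, 430 in stressed WT and 392.5 in non-stressed WT, so on that scale stressed D2R-KO alone was high.

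Slc6a11 (probe M300007126) had a spot intensity of 200.5 in stressed D2LR-KO, 411.5 in stressed D2R-KO, 216.8 in stressed WT and 517.2 in non-stressed WT. Its log2 signal was 7.87 in stressed D2LR-KO, 8.54 in stressed D2R-KO, 8.09 in stressed WT and 8.80 in non-stressed WT. Non-stressed WT was highest, stressed D2R-KO lay 0.26 below it, stressed WT a further 0.44 below and stressed D2LR-KO a further 0.22 below. The last gap is about the size of the highest spot SD between those arrays, 0.214. The deposited intensities were 108.3 in stressed D2LR-KO, 207.7 in stressed D2R-KO, 112.1 in stressed WT and 233.6 in non-stressed WT, which puts stressed WT and stressed D2LR-KO close together.

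Abat was read by a bright and a dim probe. The bright one (M300003468) had a spot intensity of 99.6 in stressed D2LR-KO, 138.7 in stressed D2R-KO, 159.9 in stressed WT and 239.8 in non-stressed WT. Its log2 signal was 6.93 in stressed D2LR-KO, 7.15 in stressed D2R-KO, 7.63 in stressed WT and 7.75 in non-stressed WT. Both WT arrays were thus above both knockout arrays, with a gap of 0.48 between the lower WT and the higher knockout, and the WT arrays were 0.12 apart, about the spot SD. The deposited intensities, 41.6, 56, 76.3 and 98.2 in the same order, had the same order of arrays. The dim probe (M400003803) had spot intensities of only 46.7, 50.7, 51.4 and 53.5 in that order, against detection limits of 38.0 to 40.3, and its log2 signals lay between 5.95 and 5.98. Its deposited intensities were 6.6, 7, 7.9 and 7.3. The dim probe thus did not share the differences of the bright one, for a reason that was not tested, and the values of Abat below are those of the bright probe.

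**Figure D1:**
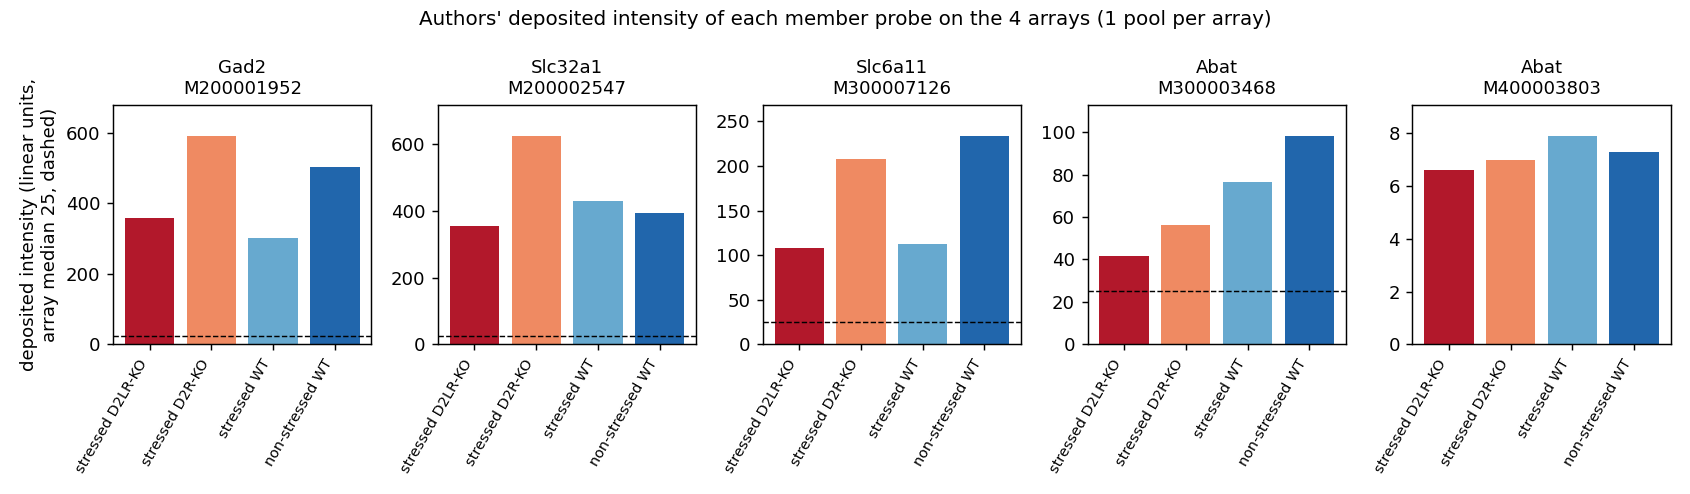
Bars give the authors' deposited intensity (linear, array median 25, dashed line; in the last panel the axis ends below it) of each member probe on the 4 arrays, 1 pool of 5 mice each. Gad2 stands at 591.1 in stressed D2R-KO and 504.4 in non-stressed WT, and the bright Abat probe is lower on both knockout arrays (41.6 and 56) than on both WT arrays (76.3 and 98.2).

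Stressed D2LR-KO was set against stressed D2R-KO to compare loss of the long receptor form with loss of the whole receptor among stressed mice. All 4 log2 folds were below 0, and 2 passed 1.5-fold, while Abat turned to 0.36 with the brightness around its spot as background. Slc6a11, the astrocytic GABA transporter, was 1.58-fold lower (log2 fold -0.66) and Slc32a1, the vesicular transporter, 1.55-fold lower (-0.63). Gad2, the decarboxylase, was at -0.54, just short of 1.5-fold, and Abat at -0.22. There were thus 2 of 4 members at least 1.5-fold lower, against 0.333% of all 15606 genes compared (52 lower and 104 higher). Where arrays were scaled to one median instead, the counts were 117 lower and 92 higher. A share of 0.160% of genes were as low as Slc6a11, 0.205% as low as Slc32a1 and 0.474% as low as Gad2. For Abat the share was 7.35%. Folds were taken after a constant was added to every signal, which shrinks the folds of dim genes. All genes compared include dim ones, whereas Gad2, Slc32a1 and Slc6a11 were brighter than most named probes. The shares of all genes here and below may thus make a fold look rarer than it is among genes as bright. That was not tested. No member differed 2-fold, as 0.147% of genes did on the higher side and 0.0513% on the lower. The median log2 fold was -0.58 over the members and -0.00 over all genes. The folds of Gad2, Slc32a1 and Slc6a11 were each larger than the highest spot SD between these arrays, 0.217, while that of Abat was about equal to it. That SD covers bright control spots alone, so a fold above it is not shown to exceed differences between mice or labellings. This comparison does not use the stressed WT array, and with that array left out of the normalization the log2 folds were -0.68 for Slc6a11, -0.64 for Slc32a1, -0.55 for Gad2 and -0.23 for Abat.

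Slc32a1 and Slc6a11, which passed 1.5-fold in that comparison, and Gad2, which came close to it, had the most negative folds there, and the 250 bases before their RefSeq transcription starts are shown (RefSeq, GRCm38.p6, 5′ to 3′). Capitals mark the letters of a GC box (GGGCGG, on either strand), the element bound by Sp1-type factors. No window is shown for Abat.
Gad2 (GRCm38.p6, chr2:22622077-22622326, plus strand): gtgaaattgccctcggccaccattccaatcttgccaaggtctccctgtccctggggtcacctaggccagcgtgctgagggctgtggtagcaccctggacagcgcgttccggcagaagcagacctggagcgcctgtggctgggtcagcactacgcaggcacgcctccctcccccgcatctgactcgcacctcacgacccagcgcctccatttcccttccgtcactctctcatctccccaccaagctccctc
Slc32a1 (GRCm38.p6, chr2:158610508-158610757, plus strand): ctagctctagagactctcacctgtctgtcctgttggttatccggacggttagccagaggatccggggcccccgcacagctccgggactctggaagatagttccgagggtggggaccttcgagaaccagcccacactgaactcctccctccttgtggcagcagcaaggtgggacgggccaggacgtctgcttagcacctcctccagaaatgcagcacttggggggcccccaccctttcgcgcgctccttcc
Slc6a11 (GRCm38.p6, chr6:114130991-114131240, plus strand): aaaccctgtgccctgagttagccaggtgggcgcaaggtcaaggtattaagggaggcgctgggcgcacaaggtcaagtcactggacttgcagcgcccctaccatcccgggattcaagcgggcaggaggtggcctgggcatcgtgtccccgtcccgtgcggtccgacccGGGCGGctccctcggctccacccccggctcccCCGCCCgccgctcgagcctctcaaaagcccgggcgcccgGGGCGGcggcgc
The Slc6a11 window held the GC box 3 times, with the leftmost base of the matches 83, 51 and 12 bases before the start, and the Gad2 and Slc32a1 windows held no match, against 32.7% of all 32851 windows of this length with at least 1 match. A TATA box (TATAAA, in 12.4% of windows), a cyclic AMP response element (TGACGTCA, in 1.55%) and the letters AGAACA of a glucocorticoid receptor motif (in 16.1%) were searched on both strands and matched in none of the 3 windows. GC content was 64% for Gad2, 62.4% for Slc32a1 and 71.2% for Slc6a11, above the median of 52.4% over all windows. These matches describe the letters in the window and were not tested against the measured differences.

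Stressed D2LR-KO was next set against non-stressed WT, which changes stress and genotype at once. All 4 log2 folds were below 0, and 2 passed 1.5-fold. Slc6a11 was 1.90-fold lower (-0.92) and Abat 1.77-fold lower (-0.82). Gad2 was at -0.48 and Slc32a1 at -0.16, short of 1.5-fold. There were thus 2 of 4 members at least 1.5-fold lower, against 1.41% of 15574 genes (0.745% were higher). None differed 2-fold with the offset of 50, as 0.109% of genes did on the higher side and 0.308% on the lower. That count depends on the processing, since 2 members were 2-fold lower with an offset of 16 or with the surround as background, and 1 on the deposited intensities with 16 added. A share of 0.398% of genes were as low as Slc6a11, 0.514% as low as Abat and 2.20% as low as Gad2, but 13.8% were as low as Slc32a1. The fold of Slc32a1 was below the highest spot SD of 0.227, so these arrays do not separate it from no difference. With 1 array per group the larger folds were not tested against no difference either. On the authors' deposited scale stressed D2LR-KO was at 108.3 against 233.6 for Slc6a11 (2.16-fold lower) and at 41.6 against 98.2 for Abat (2.36-fold lower). The median log2 fold was -0.65 over the members and 0.00 over all genes. The Abat difference rests on its bright probe, since with both probes averaged its log2 fold was -0.43. Without the stressed WT array in the normalization the log2 folds were -0.95 for Slc6a11, -0.86 for Abat, -0.49 for Gad2 and -0.16 for Slc32a1.

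Stressed D2R-KO against non-stressed WT gave a mixed picture. Abat was 1.52-fold lower in stressed D2R-KO (-0.60), at the edge of the 1.5-fold limit, and was the 1 of 4 members past it, against 1.48% of 15607 genes on the lower side. Slc32a1 was 1.39-fold higher (0.47), a difference that 1.29% of genes reached, while 0.577% were at least 1.5-fold higher. Slc6a11 was at -0.26 and Gad2 at 0.05, which is below the spot SD. None differed 2-fold with the offset of 50, against 0.115% of genes higher and 0.32% lower, but Abat reached -1.54 with the surround as background. The members thus lay on both sides of 0, with a median of -0.10 against 0.01 over all genes. With both probes averaged the log2 fold of Abat was -0.31, short of 1.5-fold, and without the stressed WT array in the normalization the log2 folds were -0.63 for Abat, 0.48 for Slc32a1, -0.27 for Slc6a11 and 0.05 for Gad2.

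Stressed WT against non-stressed WT is the comparison that by label changes stress alone, and it rests on the array that stood apart. Genes of other tissues differed too: 5 of 8 choroid plexus and ependyma genes and 5 of 9 meninges genes were at least 1.5-fold lower. Cortex and hippocampus genes had a summed signal of 16665 in stressed WT and 11969 in non-stressed WT. The part of tissue content in the differences between these 2 arrays was not tested. Slc6a11 was 1.63-fold lower in stressed WT (-0.71), 1 of 4 members past 1.5-fold, where 8.11% of 15643 genes were at least that much lower and 7.28% higher. Gad2 was at -0.40, Abat at -0.12 and Slc32a1 at 0.44. None differed 2-fold with the offset of 50, against 1.46% of genes higher and 2.14% lower, but Slc6a11 reached -1.25 with the surround as background. In this comparison 14.0% of genes were as low as Gad2 and 11.7% as high as Slc32a1, so the members sat inside the spread of all genes, with 5.77% of genes as low as Slc6a11. Within the array, the log2 folds of Slc32a1 and Slc6a11 differed by 1.14 and those of Gad2 and Slc32a1 by -0.84. Because of the added constant, a common scale factor does not fully cancel in these differences. The Slc32a1 fold ranged from 0.10 to 0.53 under the alternatives. As levels, Slc6a11 in stressed WT was at 112.1 on the deposited scale, against 233.6 in non-stressed WT, a 2.08-fold difference with no offset.

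Among stressed mice, the knockouts were also set against stressed WT. Stressed D2LR-KO had Abat 1.62-fold lower (-0.70) and Slc32a1 1.51-fold lower (-0.60), or 2 of 4 members past 1.5-fold, against 8.2% of 15640 genes on the lower side. Each of these calls held in 5 of 9 alternatives, with Abat reaching -0.20 with the surround as background and Slc32a1 reaching -0.23 under median scaling. Slc6a11 was at -0.22 and Gad2 at -0.09, and Gad2 turned to 0.26 with each array scaled to one median. None differed 2-fold, against 2.62% of genes higher and 1.83% lower. Stressed D2R-KO had no member past 1.5-fold, against 9.31% of 15655 genes higher and 8.64% lower, with Gad2 at 0.45, Slc6a11 at 0.44, Slc32a1 at 0.03 and Abat at -0.48. None differed 2-fold there either, against 2.71% of genes higher and 2.57% lower. For stressed D2R-KO against stressed WT, Gad2 passed 1.5-fold on the higher side in 3 of 9 alternatives, reaching 0.94. Slc6a11 did so in 2, reaching 0.80, and Abat passed it on the lower side in 1, at -0.60. In both comparisons the members' log2 folds lay between the 5th and 95th percentiles of all genes, which were -0.73 and 0.79 for stressed D2LR-KO and -0.77 and 0.79 for stressed D2R-KO. Comparisons that share an array are not independent, so their values are set side by side and nothing is read from their likeness.

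**Figure D2:**
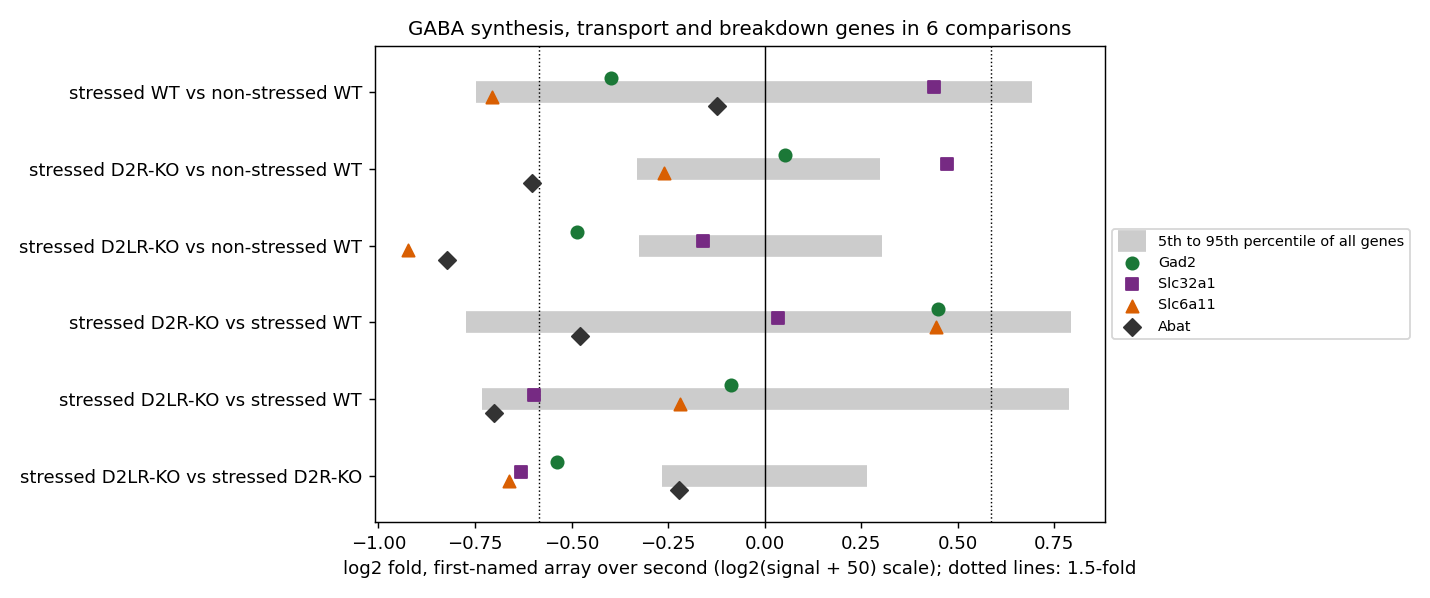
Points give the log2 fold of each member in the 6 comparisons, first-named array over second, on the log2(signal + 50) scale; grey bars span the 5th to 95th percentile of all genes compared and dotted lines mark 1.5-fold. Slc6a11, Slc32a1 and Gad2 lie outside the grey bar for stressed D2LR-KO against stressed D2R-KO (-0.66, -0.63 and -0.54). All members lie inside the grey bar in the 3 comparisons that use the stressed WT array. The bars include dim genes, whose folds this scale shrinks.

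How far the members followed each other was measured over the 4 arrays by the Euclidean distance between log2 profiles centred on each gene's mean, among 14704 genes detected on all arrays. The genes nearest to Slc32a1 were Disp2 (distance 0.0811), Vamp1, a synaptic vesicle protein gene (0.137), and Kctd8, which encodes an auxiliary subunit of GABA-B receptors (0.164). Nearest to Slc6a11 were Prdx6, a peroxiredoxin gene (0.0935), Gaa, lysosomal alpha-glucosidase (0.124), and Slc1a4, a neutral amino acid transporter gene (0.197). Nearest to Abat were Pip5k1a, a phosphoinositide kinase gene (0.106), Dbn1, which encodes the actin-binding protein drebrin (0.114), and Ncdn, neurochondrin (0.142). Gad2 ranged over less than 1.5-fold and was given no such list. Among the members, Gad2 was the 31st nearest gene to Slc6a11 (0.324), but it stood only 7715th from Slc32a1 (0.597). That order rests on the stressed WT array: without it the distance of Gad2 was 0.312 from Slc32a1 and 0.320 from Slc6a11, with no clear order left. With 4 arrays, many genes share any given profile, and these distances are a description.

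The other genes of GABA handling were not lower as a group in stressed D2LR-KO against stressed D2R-KO. Of the 4 other transporters and breakdown enzymes measured, 1 was at least 1.5-fold higher and none lower (median 0.34), against 0.666% of all genes higher. That gene was Slc6a13, the GABA transporter GAT-2 of meninges and vessels, with deposited intensities of 89.8 in stressed D2LR-KO and 44.4 in stressed D2R-KO (0.72). Slc6a12, the betaine and GABA transporter, was at 0.49, Aldh9a1, an aldehyde dehydrogenase, at 0.19 and Aldh5a1, the succinic semialdehyde dehydrogenase that follows Abat in GABA breakdown, at -0.34. All 9 measured genes of the meninges and fibroblast list, which also holds Slc6a13, were above 0 in this comparison, 7 of them past 1.5-fold (median 0.98), with a summed signal of 4258 in stressed D2LR-KO and 1416 in stressed D2R-KO. The part of that tissue in the Slc6a13 difference was not tested.

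Receptor and synaptic scaffold genes were read in the same way. Of 14 GABA-A receptor subunits compared in stressed D2LR-KO against stressed D2R-KO, none passed 1.5-fold on the higher side (median -0.01). On the lower side 1 did, against 0.333% of all genes. It was Gabra3, with deposited intensities of 31 in stressed D2LR-KO, 68.3 in stressed D2R-KO, 26.8 in stressed WT and 100.8 in non-stressed WT (-0.63). Both GABA-B receptor genes and all 5 measured scaffold genes stayed within 1.5-fold (medians 0.03 and -0.05). Against non-stressed WT, cortex and hippocampus genes were also lower in stressed D2LR-KO, with a summed signal of 4843 there and 11969 in non-stressed WT, and their part in what follows was not tested. There 4 of 14 GABA-A subunits passed 1.5-fold on the lower side in stressed D2LR-KO and none on the higher side, with Gabra3 at -1.08, Gabra4 at -0.66, Gabrb2 at -0.64 and Gabrb1 at -0.62, and a list median of -0.07. Over all genes 1.41% were that much lower, and with the surround as background Gabra4 was at -0.04 and Gabrb2 at -0.05. None of the 4 other transporters and breakdown enzymes passed 1.5-fold there (median 0.14), nor did any scaffold gene (median -0.02). In stressed D2R-KO against non-stressed WT, 3 of 14 subunits were lower, namely Gabrb1 at -0.73, Gabra2 at -0.72 and Gabra4 at -0.70, and so were Slc6a13 at -0.66 and the trafficking gene Gabarap at -0.63, against 1.48% of all genes. With the surround as background Gabra2 was at -0.15, Gabra4 at -0.04 and Slc6a13 at -0.35, and on the deposited intensities Gabarap was at -0.46. Cortex and hippocampus genes were lower there too, 7 of 11 past 1.5-fold, with a summed signal of 4723 in stressed D2R-KO and 11969 in non-stressed WT. In stressed WT against non-stressed WT, 2 of 13 subunits compared were lower, Gabra3 at -1.19 and Gabrb2 at -0.60, and none was higher, against 8.11% of all genes lower. Gabrb2 was at -0.16 with the surround as background. There 2 of 4 other transporters and breakdown enzymes were lower, Slc6a13 at -1.07 (-0.39 with the surround) and Aldh5a1 at -0.87, and of the scaffold genes Gabarap was at 0.84 (0.44 under median scaling) and gephyrin, Gphn, at -0.62.

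Both comparisons with stressed WT share that array, and their values are given side by side. In stressed D2LR-KO against stressed WT all 4 other transporters and breakdown enzymes were at least 1.5-fold higher, against 8.72% of genes, with Slc6a13 at 1.12, Aldh9a1 at 0.78, Slc6a12 at 0.74 and Aldh5a1 at 0.68. Aldh9a1 was at 0.07 with the surround as background, and without background correction Slc6a12 was at 0.58 and Aldh5a1 at 0.52, short of 1.5-fold. All 9 genes of the meninges list, Slc6a13 included, were above 0 in the same comparison, 7 past 1.5-fold (median 1.12), and their part was not tested. In stressed D2R-KO against stressed WT 2 of 4 were higher, Aldh5a1 at 1.02 and Aldh9a1 at 0.59, against 9.31% of all genes. Aldh9a1 kept its call in 5 of 9 alternatives and was at 0.15 with the surround, where Aldh5a1 was at 0.54. Abat and Aldh5a1, which encode the consecutive enzymes of GABA breakdown, thus lay on opposite sides of 0 in both comparisons, with Abat at -0.70 and -0.48. Gabarap was lower in both, at -1.21 in stressed D2LR-KO and -1.47 in stressed D2R-KO, and Gphn higher in both, at 0.60 and 0.62 (0.17 and 0.50 with the surround). Of the GABA-A subunits, Gabrg1 was at 0.83 and Gabra5 at -0.83 in stressed D2LR-KO, while in stressed D2R-KO Gabrg1 was at 0.96, Gabra5 at -0.83 and Gabra3 at 0.74. Over all genes 8.2% were at least 1.5-fold lower in stressed D2LR-KO and 8.64% in stressed D2R-KO. Cortex and hippocampus genes were lower in both comparisons too, 6 of 11 past 1.5-fold in each. Their summed signal was 4843 in stressed D2LR-KO, 4723 in stressed D2R-KO and 16665 in stressed WT, and their part was not tested.

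Supply of glutamate, the substrate for GABA, was read from 7 of 8 listed genes. Glul, the glutamine synthetase of astrocytes, had deposited intensities of 84.5 in stressed D2LR-KO, 474.3 in stressed D2R-KO, 90.6 in stressed WT and 728.9 in non-stressed WT. It shared with Slc6a11 the order non-stressed WT, stressed D2R-KO, stressed WT, stressed D2LR-KO, over a far wider range. Its log2 fold was -1.98 for stressed D2LR-KO against stressed D2R-KO, where it was the 1 of 7 past 1.5-fold (median -0.01), and -2.75 against non-stressed WT, again 1 of 7 (median -0.08). Over all genes 0.333% and 1.41% were at least 1.5-fold lower, in that order. In stressed D2R-KO against non-stressed WT, Glul was at -0.77 and Slc1a3 at -0.61, the 2 of 7 past 1.5-fold, against 1.48% of all genes. In stressed WT against non-stressed WT those past 1.5-fold were Glul at -2.52 and the neutral amino acid transporter gene Slc38a2 at -0.91, against 8.11% of all genes. Against stressed WT, Glul was at 1.76 and Slc38a2 at 0.64 in stressed D2R-KO, while in stressed D2LR-KO Slc38a2 was at 0.63 and Glud1, glutamate dehydrogenase, at -0.60 (-0.14 with the surround). Of all genes, 9.31% were at least 1.5-fold higher in stressed D2R-KO there, and 8.72% higher and 8.2% lower in stressed D2LR-KO. The remaining genes of that list lay between -0.50 and 0.25 for stressed D2LR-KO against stressed D2R-KO and against non-stressed WT, with the glial glutamate transporters Slc1a2 at -0.01 and -0.01 and Slc1a3 at 0.10 and -0.50. Of the 12 astrocyte markers, Glul included, 1 was at least 1.5-fold lower in each of these comparisons, against 0.333% and 1.41% of all genes. The median was 0.05 and -0.01. In stressed WT against non-stressed WT, 4 of the 12 were lower (median -0.26), against 8.11% of all genes. The summed signal of the list was 32284 in stressed D2LR-KO, 34053 in stressed D2R-KO, 29226 in stressed WT and 33469 in non-stressed WT. Most of each sum came from 1 gene, Aldoc, with log2 signals of 14.33, 14.47, 14.47 and 14.38 in that order. The sum thus says little of the dimmer markers. Slc6a11 was at -0.66 in stressed D2LR-KO against stressed D2R-KO and at -0.92 against non-stressed WT. The part of astrocyte content in the Slc6a11 and Abat differences was not tested.

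Neuronal markers were read beside Gad2 and Slc32a1. All 9 pan-neuronal genes measured were below 0 in stressed D2LR-KO against stressed D2R-KO (median -0.26), 1 of them past 1.5-fold, against 0.333% of all genes. Syp was at -0.47, Nefm at -0.41 and Syt1 at -0.02. The summed signal of the 9 genes was 22314 in stressed D2LR-KO, 27947 in stressed D2R-KO, 23796 in stressed WT and 25357 in non-stressed WT. Gad2 at -0.54 and Slc32a1 at -0.63 were lower than 8 of these 9 genes, the exception being Eno2 at -0.97. Among factors of brainstem GABA neurons, 7 of 9 were below 0 in that comparison (median -0.24) and none passed 1.5-fold, with Gata3, which serotonergic neurons also use, at -0.58, Lhx5 at -0.38 and Tal1 at -0.27. Slc6a5, the transporter that marks glycine neurons, which package glycine with the product of Slc32a1, had deposited intensities of 53.2 in stressed D2LR-KO, 231.9 in stressed D2R-KO, 2.4 in stressed WT and 3 in non-stressed WT. On the same scale Slc32a1 was at 354.6 in stressed D2LR-KO, 624.4 in stressed D2R-KO, 430 in stressed WT and 392.5 in non-stressed WT. The list named glycine neurons holds Slc6a5 and the glycine receptor subunit genes Glra1 and Glrb, so only Slc6a5 in it marks those neurons. All 3 were below 0 in stressed D2LR-KO against stressed D2R-KO (median -0.60). Of these, 2 were at least 1.5-fold lower, Slc6a5 at -1.52 and Glra1 at -0.60, against 0.333% of all genes. Against non-stressed WT, stressed D2LR-KO had Slc6a5 at 1.36 but Glra1 at -0.64. Slc17a6, the vesicular transporter of excitatory neurons, had deposited intensities of 621.4 in stressed D2LR-KO, 654.1 in stressed D2R-KO, 95 in stressed WT and 578.3 in non-stressed WT, and Slc17a8 stayed between 3.6 and 7.6. Slc17a6 was low in stressed WT on that scale (log2 fold -2.14 against non-stressed WT), but with the surround as background that fold turned to 0.93. Of 11 forebrain interneuron genes, 9 were above 0 in stressed D2LR-KO against stressed D2R-KO (median 0.13), while 9 were below 0 in each knockout against non-stressed WT (medians -0.28 in stressed D2LR-KO and -0.37 in stressed D2R-KO), Dlx1 being at -1.50 and -1.73 but Pvalb at 1.09 and 1.21. Pituitary hormone genes were high on the stressed D2R-KO array alone, with a summed signal of 894.5 there, against 155.8 in stressed D2LR-KO. Pons and medulla genes, Slc6a5 included, had a summed signal of 544.2 in stressed D2LR-KO, 809.7 in stressed D2R-KO, 103.8 in stressed WT and 211.7 in non-stressed WT. Choroid plexus and ependyma genes summed to 509.2, 215.4, 12492 and 23622 in that order. In each knockout 5 of 8 of the latter were at least 1.5-fold lower against non-stressed WT, and 1 of 8 against stressed WT. The part of differing cell or tissue content in the differences of Gad2 and Slc32a1 was not tested.

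**Figure D3:**
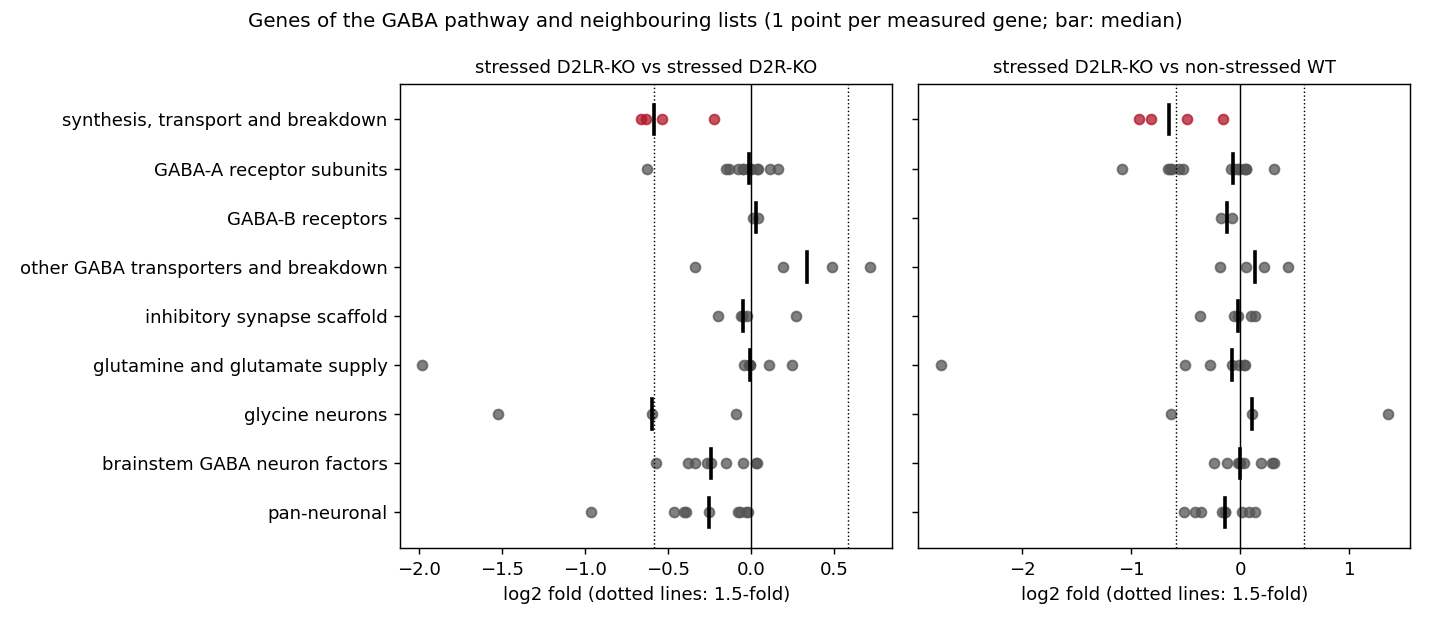
Each point is the log2 fold of 1 compared gene and black bars are list medians, for stressed D2LR-KO against stressed D2R-KO (left) and against non-stressed WT (right); dotted lines mark 1.5-fold. In the left panel the members (red) have a median of -0.58, the GABA-A subunits one of -0.01 and the pan-neuronal genes one of -0.26.

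The members' folds were recomputed under 9 other ways of processing the arrays, and 1 more where stressed WT is not involved. For stressed D2LR-KO against stressed D2R-KO, Slc32a1 stayed between -0.79 and -0.60 and Slc6a11 between -0.85 and -0.59, past 1.5-fold in 10 of 10, and Gad2 between -0.70 and -0.51, past it in 3 of 10. For stressed D2LR-KO against non-stressed WT, Slc6a11 stayed between -1.47 and -0.83, past 1.5-fold in 10 of 10. The brightness around the spots differed between arrays for some members. The surround of the Slc32a1 spot was 102.4 in stressed D2LR-KO, 198.6 in stressed D2R-KO, 143.3 in stressed WT and 395.8 in non-stressed WT. The surround of the bright Abat spot was 59.1, 116.3, 104.6 and 84.0 in the same order, against spots of 99.6 to 239.8. With that surround as background, Abat in stressed D2LR-KO against stressed D2R-KO turned to 0.36, and in stressed WT against non-stressed WT it went to -0.98.

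**Figure D4:**
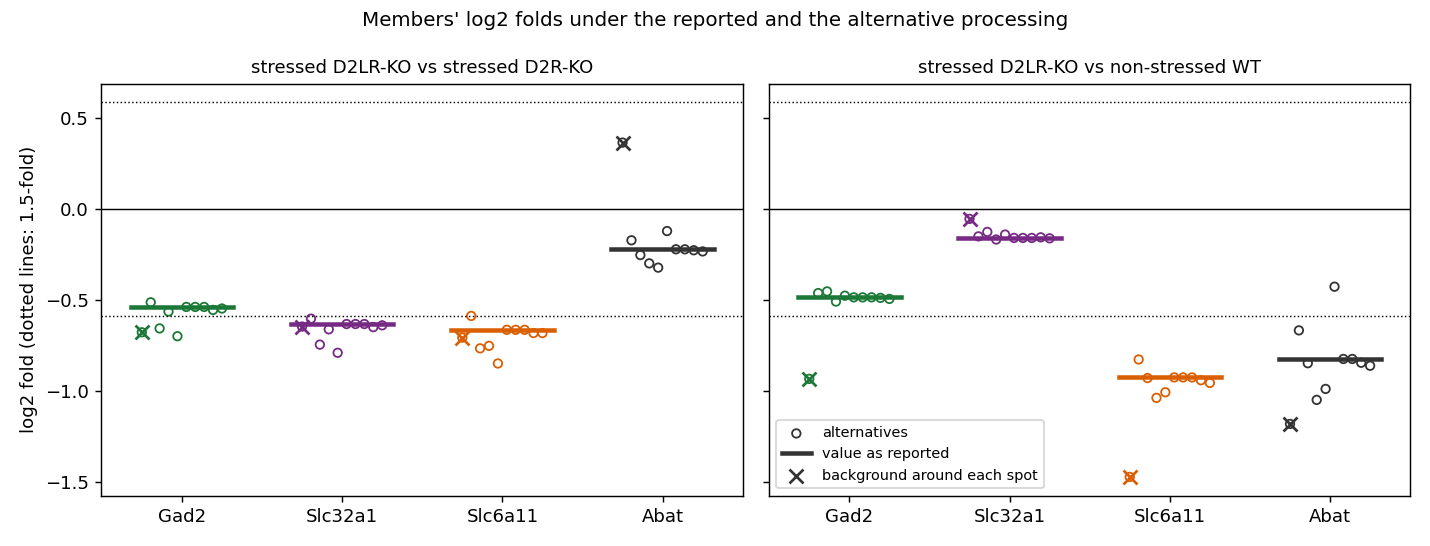
For 2 comparisons, bars give the log2 fold of each member as reported, open circles the alternatives and crosses the one that uses the brightness around each spot; dotted lines mark 1.5-fold. On the left, Slc32a1 and Slc6a11 stay below the lower dotted line throughout and Abat turns to 0.36 in 1 alternative; on the right, Slc6a11 ranges from -1.47 to -0.83.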

How the data were processed

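Single-colour Toray arrays measured RNA of the dorsal raphe nucleus, with 1 array per group and 5 mice pooled on each. The deposited files hold spot and surround intensities at 635 nm per the file headers, and a table of the authors' deposited intensities. On every array that table equalled the spot median minus a constant (36.7 to 38.8) divided by a factor (1.51 to 2.05), giving an array median of 25, within 0.06 for all but 1 value. Tissue pooling and the swim schedule are per the labels' protocols.

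Spot medians were corrected with normexp on 2736 blank spots (limma 3.58.1 in R 4.3.3, offset 50), put on the log2 scale and quantile normalized over the 4 arrays, so folds were taken as differences of log2(signal + 50), in which dim genes appear to differ less than they do. Detection needed a spot above the blank mean plus 2 SD, a limit that 91.0% to 91.6% of gene spots passed. A gene with several probes took the probe with the highest mean signal. Probes were named from the platform annotation, with symbols updated through RefSeq (12501 of 16446 current, 3883 updated, 62 kept). Among probes, 16631 that were used here had 1 symbol and 6840 had none, and 9 flagged probes were left out. Python 3.11.15 with pandas 2.3.3 computed counts and distances. The background correction, normalization and 1.5-fold cut were tested on simulated copies of the non-stressed WT array, with large known changes of bright probes. Detection, probe choice, list counts and distances were not tested in that way.

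By rule the text names all measured members, the pathway genes past 1.5-fold (at most 4 per list and comparison), the reference genes Slc6a5, Slc17a6, Slc17a8, Drd2 and Tph2, and the 3 nearest profiles of each member that ranged over at least 1.5-fold. Other genes named were chosen after their values were seen. The members and the gene lists were chosen with earlier results of these data known. No count model, test or p-value was used.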

Additional observations from a re-analysis of the deposited data

How the results depend on the processing

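No paired analysis was possible because each group has 1 array, and for the same reason no array could be left out as a replicate. Of 228 recomputed folds of the members, 199 kept their side of 1.5-fold, 18 newly passed it and 11 no longer did. Of the folds past 1.5-fold, none changed direction under the alternatives run, whereas 4 folds short of it did: Gad2 in stressed D2R-KO against non-stressed WT (-0.26) and Abat in stressed D2LR-KO against stressed D2R-KO (0.36) with the surround, and Gad2 in stressed D2LR-KO against stressed WT under median scaling (0.26) and on deposited intensities (0.24). With the brightness around each spot as background, Abat in stressed D2LR-KO against stressed WT was -0.20. There the following passed 1.5-fold: Gad2 in stressed D2LR-KO against stressed D2R-KO (-0.68) and against non-stressed WT (-0.93), Gad2 in stressed WT against non-stressed WT (-0.93), Gad2 in stressed D2R-KO against stressed WT (0.67), Slc6a11 and Slc32a1 in stressed D2R-KO against non-stressed WT (-0.76 and 0.59) and Abat in stressed WT against non-stressed WT (-0.98). On the deposited intensities and with each array scaled to one median, in that order, Slc32a1 in stressed D2LR-KO against stressed WT was -0.27 and -0.23, short of 1.5-fold, as was Abat under median scaling (-0.56). Newly past 1.5-fold there were Gad2 in stressed D2LR-KO against stressed D2R-KO (-0.70 and -0.66), Gad2 in stressed WT against non-stressed WT (-0.72 and -0.71), Slc32a1 in stressed D2R-KO against non-stressed WT (0.65 and 0.62), and Slc6a11 (0.80 and 0.75) and Gad2 (0.94 and 0.92) in stressed D2R-KO against stressed WT. With the mean of a gene's probes, Abat was short of 1.5-fold in stressed D2R-KO (-0.31) and stressed D2LR-KO (-0.43) against non-stressed WT and in stressed D2LR-KO against stressed WT (-0.36). Without background correction Abat was at -0.49 in stressed D2R-KO against non-stressed WT, and in stressed D2LR-KO against stressed WT Abat was at -0.56 and Slc32a1 at -0.57, which was at -0.58 with 2 arrays normalized alone. With offset 16, Abat in stressed D2R-KO against stressed WT was -0.60. Counts of members past 1.5-fold moved between 0 and 3, and past 2-fold between 0 and 2. The cause of these shifts was not tested. Leaving the stressed WT array out of the normalization, an alternative chosen after seeing the data, changed no call. No alternative moved the median of all genes by over 0.1. Counts over all genes moved more: at least 1.5-fold lower in stressed D2LR-KO against stressed D2R-KO were 52 genes as reported and 33 to 386 under the alternatives, against non-stressed WT 219 (154 to 743), in stressed D2R-KO against non-stressed WT 231 (166 to 786) and in stressed WT against non-stressed WT 1268 (929 to 2257). At least 1.5-fold higher in the same order were 104 (68 to 468), 116 (75 to 1082), 90 (63 to 1096) and 1139 (580 to 1827). Against stressed WT, 1283 (658 to 1984) were lower and 1364 (1009 to 2443) higher in stressed D2LR-KO, and 1353 (708 to 2089) lower and 1458 (1062 to 3032) higher in stressed D2R-KO. Under median scaling the share of higher among called genes was 44.0% and not 66.7% in stressed D2LR-KO against stressed D2R-KO, 53.2% and not 28.0% in stressed D2R-KO against non-stressed WT, 23.1% and not 47.3% in stressed WT against non-stressed WT, and against stressed WT 76.5% and not 51.5% in stressed D2LR-KO and 78.7% and not 51.9% in stressed D2R-KO.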
